A study of Mus musculus with 5 samples.

Results

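The 10 genes described here, Nodal, Lefty1, Lefty2, Smad7, Skil, Id1, Id2, Id3, Bmp4 and Inhbb, encode ligands, inhibitors and targets of the Nodal, activin and BMP pathways. They were chosen by name, and every probe that carries 1 of these names was taken, which gave 14 probes of 41174 on the array, and 10 of the 27670 gene names on it. Id1, Id2, Skil and Inhbb had 2 probes each and the other genes 1. For a gene with 2 probes, the probe with the higher mean log2 signal over the 5 lines stands for the gene, and the other is given beside it.

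RNA was taken from 5 mouse ESC lines grown on gelatin with LIF and serum, and 1 one-colour Agilent array was hybridized per line. The wild-type (WT) group held RF8, labelled male and of 129sv origin, and #620-2, labelled female and of C57BL6/129sv origin. The ECAT11EGFP/EGFP group held #620-6, labelled female, and #757-1 and #757-2, both labelled male, all of C57BL6/129sv origin. In these 3 lines, which the labels call knock-in ESCs, both copies of the ECAT11 coding region were replaced by EGFP. The study describes this as a disruption of ECAT11. No row of the array files holds the names ECAT11 or L1td1, the other RefSeq synonyms of the gene or its RefSeq accession, and a probe known by another identifier was not looked for, so the transcript is not analysed here. Each line is a clone of its own and counts as 1 replicate. The p-values measure the spread between these clones, and an exact permutation of 2 lines against 3 cannot reach a p below 0.1. RF8 and both #620 lines lay on slide 1 and both #757 lines on slide 2. The lines other than RF8 were established in the study on SNL feeder cells, a fibroblast line.

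Nodal is a secreted ligand that, like the activins, acts through activin receptors and the transcription factors Smad2 and Smad3. It induces its own inhibitors Lefty1 and Lefty2, together with Smad7 and Skil, which restrain the signal inside the cell. BMP4 acts through other receptors and Smad1 and Smad5 and induces the Id genes, whose proteins block basic helix-loop-helix factors. In mouse ESCs, BMP signals act together with LIF to hold back neural differentiation.

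The probes are 60 bases long, and what they match decides which transcript a value belongs to. The following probes are shown because they either tell close relatives apart or give a second, separate reading of a gene. In each of those printed whole, at least 1 reading frame has no stop codon before its last. The capitals in the Id2 probe mark the stop codon with which it ends.
Bmp4: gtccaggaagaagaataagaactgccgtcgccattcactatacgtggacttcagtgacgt
Id2: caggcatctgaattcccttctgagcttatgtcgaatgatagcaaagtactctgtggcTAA
Id3: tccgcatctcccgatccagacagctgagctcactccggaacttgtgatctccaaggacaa
Skil: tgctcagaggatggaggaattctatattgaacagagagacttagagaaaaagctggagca
Inhbb: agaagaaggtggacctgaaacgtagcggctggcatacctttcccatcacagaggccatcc
Lefty1, first 30 bases: ctttcatgcaaatctgaagtgctcattata
Lefty2, first 30 bases: ttgtcctaacttagtgctctcgtcagacct
In mm7, the build of the probe positions, the Bmp4 probe lies at chr14:41704207-41704266 on the minus strand and the Inhbb probe at chr1:119278359-119278418 on the minus strand. The Skil probe lies at chr3:30929474-30929533 on the plus strand. The Id2 probe covers 348 genomic bases, chr12:22931820-22932167 on the minus strand, and the Id3 probe 175, chr4:135522597-135522771 on the plus strand, so that each runs across an intron. The Lefty1 probe, chr1:180917655-180917714, lies 40100 bases from the Lefty2 probe, chr1:180877495-180877554, and the longest run the whole probes share is 7 bases. The 2 probes of Id1 share 50 of their bases and are close to a repeat of 1 reading, whereas those of Id2, Skil and Inhbb lie 1219, 4753 and 2274 bases apart in mm7.

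Values are log2 of the background-corrected intensity relative to the 75th percentile of the array, so that 0 is the level of that percentile. They compare lines for a probe, not probes with each other. In all 5 lines the primary probe of each of the 10 genes was well above background, the flag that the scanner software gives a spot brighter than its surroundings. The lowest log2 signal well above background was -6.22 to -5.90 on slide 1 and -4.49 and -4.22 on slide 2. Groups were compared with limma over all 28972 probes kept. A gene was called where its adjusted p was under 0.05 and its change more than 2-fold. The ESC markers (Pou5f1, Sox2, Nanog and 6 others) were well above background in all 5 lines, but they were not at 1 level. Zfp42 lay at 7.0 and 6.80 in RF8 and #620-2 and at 4.01, 6.56 and 3.87 in #620-6, #757-1 and #757-2, 4.25-fold lower in ECAT11EGFP/EGFP ESCs without overlap (adjusted limma p of 0.721). Tbx3 was 4.95-fold higher in the #620 lines (adjusted limma p of 0.153), and Nanog ran from 2.54 in RF8 to 4.54 in #620-6. The summed level of the 9 markers, 505 to 597 times the 75th percentile, rests mostly on Dppa5a, at 8.07 to 8.43.

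**Figure D1:**
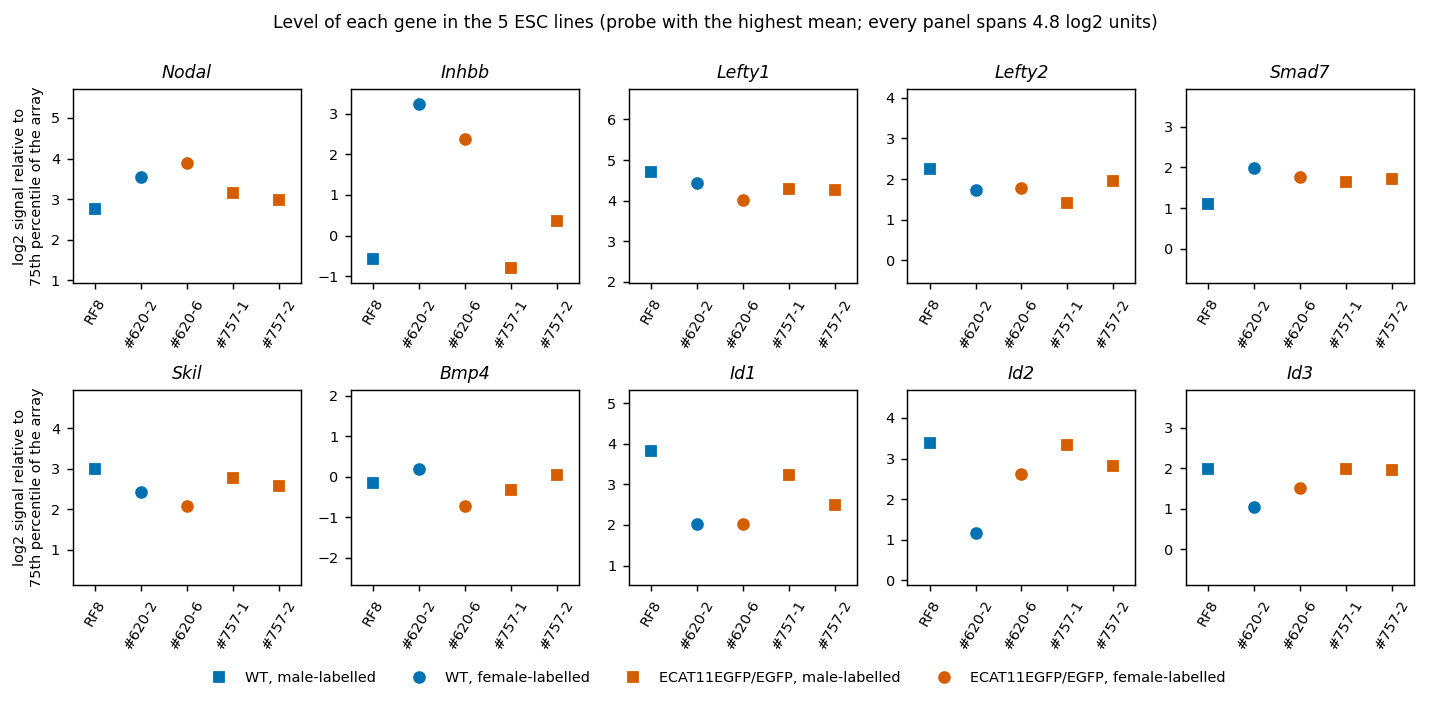
Log2 signal of the 10 genes (y axis, relative to the 75th percentile of the array) in each of the 5 lines (x axis), 1 point per array. Squares are male-labelled and circles female-labelled lines, blue WT and orange ECAT11EGFP/EGFP. Inhbb spans 16.5-fold, with both #620 lines on top, whereas Lefty1 spans 1.59-fold.

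Among the ligands, Nodal lay at a log2 signal of 2.75 in RF8, 3.53 and 3.90 in #620-2 and #620-6, and 3.16 and 2.98 in #757-1 and #757-2. Both #620 lines were above the other 3, and the genotypes overlapped, since the WT lines were the lowest and the second highest. Inhbb encodes the beta B subunit of activins and inhibins. On the same scale it lay at -0.57 in RF8, 3.24 and 2.39 in #620-2 and #620-6, and -0.80 and 0.36 in #757-1 and #757-2. The highest and the lowest line differed 16.5-fold, the widest range of the 10 genes, and again both #620 lines were above the other 3. The second Inhbb probe was well above background in the #620 lines alone, at -2.55 in #620-2 and -3.65 in #620-6.

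Bmp4, the BMP ligand of the 10, is spotted 10 times on each array. The mean of its spots lay at -0.16 in RF8, 0.18 and -0.73 in #620-2 and #620-6, and -0.32 and 0.03 in #757-1 and #757-2. The spots of an array had an SD of 0.04 to 0.07, so the 1.88-fold range between lines was larger than the spread between spots, which says nothing of the spread between cultures. The order of the lines followed neither genotype nor sex label.

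The inhibitor Lefty1 reached 4.70 in RF8 and 4.44 in #620-2, the WT lines, and 4.02, 4.29 and 4.25 in #620-6, #757-1 and #757-2. Both WT lines were above the 3 ECAT11EGFP/EGFP lines. Its relative Lefty2 reached 2.24 and 1.74 in these WT lines and 1.78, 1.41 and 1.95 in the 3 others in that order, and the groups overlapped by either label.

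Smad7, the inhibitory Smad, lay at 1.11 in RF8, 1.98 and 1.77 in #620-2 and #620-6, and 1.63 and 1.71 in #757-1 and #757-2. RF8 stood below the other 4 lines, which lay close together. Skil, a Smad co-repressor, lay at 2.99 in RF8, 2.42 and 2.07 in #620-2 and #620-6, and 2.76 and 2.58 in #757-1 and #757-2. Here RF8 was the highest and both #620 lines the lowest. The second Skil probe moved less, from -0.82 in RF8 to -1.22 in #757-2, and did not place the #620 lines lowest.

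Id1, Id2 and Id3 were highest in RF8 and lowest in #620 lines. Id1 lay at a log2 signal of 3.82 in RF8, 2.01 and 2.03 in #620-2 and #620-6, and 3.23 and 2.50 in #757-1 and #757-2. Id2 lay at 3.39 in RF8, 1.18 and 2.63 in the #620 lines, and 3.34 and 2.81 in the #757 lines, in the same order. Id3 lay at 1.99 in RF8, 1.05 and 1.52 in the #620 lines, and 1.98 and 1.96 in the #757 lines. Id1 was low in both #620 lines, 1.01-fold apart, whereas Id2 and Id3 were lower in #620-2 than in #620-6. Across the 5 lines Id2 and Id3 had a Pearson r of 0.951 and Id1 and Id2 of 0.77, as a description of 5 arrays that share their scaling.

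Promoter sequence from RefSeq (GRCm38.p6) was matched for Id2, Id3, Nodal, Bmp4 and Inhbb. The 250 bases before the start of Id2 and Id3 are shown because these genes followed each other most closely. The capitals mark GGCGCC and GTCT, read on both strands, which are core letters of sites bound by BMP Smads and by Smads in general, and the motifs do not overlap here.
Id2: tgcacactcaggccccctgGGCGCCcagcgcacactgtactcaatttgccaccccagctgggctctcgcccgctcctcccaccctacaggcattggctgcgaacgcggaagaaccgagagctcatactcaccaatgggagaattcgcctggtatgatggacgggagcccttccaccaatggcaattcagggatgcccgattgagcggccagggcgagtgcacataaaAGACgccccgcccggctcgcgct
Id3: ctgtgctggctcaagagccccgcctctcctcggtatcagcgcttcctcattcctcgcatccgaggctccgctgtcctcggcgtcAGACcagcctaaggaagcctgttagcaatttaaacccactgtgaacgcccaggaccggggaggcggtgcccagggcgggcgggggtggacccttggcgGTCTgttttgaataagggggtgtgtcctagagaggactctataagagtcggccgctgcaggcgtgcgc
The Id2 window is chr12:25096093-25096342 on the minus strand and the Id3 window chr4:136143572-136143821 on the plus strand. Id2 held 1 GGCGCC and 1 GTCT, and Id3 held 0 and 2. Of 32851 promoter windows of this length, 9.59% held GGCGCC and 82.9% GTCT. The Nodal window held neither, Bmp4 1 GTCT and Inhbb 2. A match in letters is not evidence that a factor binds there.

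The first comparison asks whether the genes differ between ECAT11EGFP/EGFP and WT ESCs. With limma 0 of the 10 were called, where 0.00345% of all probes, 1 of 28972, were called. At an unadjusted p under 0.05 the count was also 0 with limma, against 7.6% of all probes, and 0 with the methods' t-test. Higher in ECAT11EGFP/EGFP ESCs were 4 genes and lower 6, with a median log2 fold change of -0.26 beside -0.02 over all probes. The groups did not overlap for 1 of the 10 genes, Lefty1, where this held for 23.5% of all probes.

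Lefty1 had a mean log2 signal of 4.57 ± 0.18 (SD, n = 2) in WT and 4.19 ± 0.15 (SD, n = 3) in ECAT11EGFP/EGFP ESCs. It was 1.30-fold lower in the latter, a log2 fold change of -0.38 ± 0.18 (SE) with a 95% confidence interval from -0.85 to 0.09 and a limma adjusted p of 0.747. This was lower in 3 of 3 lines but did not pass the test. The summed level of 7 fibroblast markers (9.44 to 15.4 in WT, 2.36 to 9.03 in ECAT11EGFP/EGFP ESCs) was also lower in all 3 of these lines, by a narrow gap. Taken singly, 1 of the 7 markers, Col1a2, did not overlap. The part of these markers in the Lefty1 difference was not tested. The widest interval was that of Inhbb, from -4.63 to 3.26 around -0.69, with 1 WT line at the top and the other near the bottom. The intervals of Nodal (-0.84 to 1.25), Id1 (-2.08 to 1.42) and Id2 (-1.23 to 2.52) include changes of more than 2-fold in 1 or both directions. For Lefty1, Lefty2, and Smad7 the whole interval lay within 2-fold in either direction. The second Skil probe was also without overlap, at -0.87 ± 0.08 (SD, n = 2) in WT and -1.18 ± 0.06 (SD, n = 3) in ECAT11EGFP/EGFP ESCs, with a limma adjusted p of 0.743. For Skil, Nodal, Smad7 and Id1 the direction turned without RF8, for Id2 and Id3 without #620-2, and for Inhbb without #620-2 or #757-1 and with the slide as a block. That of Nodal also turned without #620-6.

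**Figure D2:**
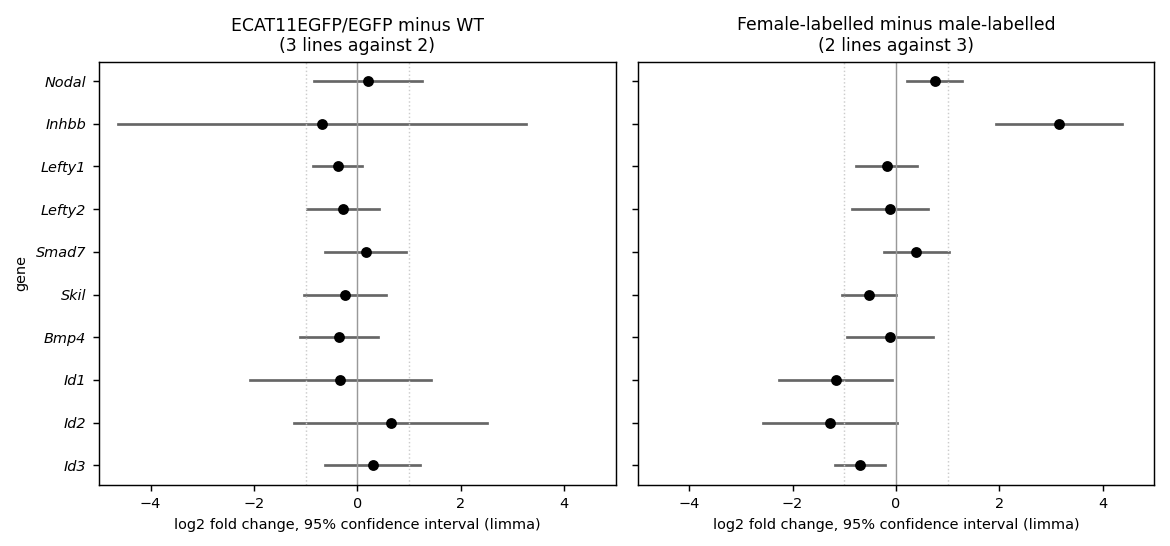
Log2 fold change (x axis, point) with its 95% confidence interval (line) from limma for the 10 genes (y axis), by genotype on the left and by sex label on the right. Dotted lines mark 2-fold. By genotype every interval crosses 0, and by sex label those of Inhbb, Nodal, Id1 and Id3 do not.

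Line #620-6 and line #620-2 share slide, sex label and strain label and differ in genotype. With 1 array on each side there is no test. Of the 10 genes, 1 differed by more than 2-fold, where 7.1% of probes detected above background in both did. This was Id2, 2.74-fold higher in #620-6, and 3.05-fold by its second probe. Bmp4 was 1.88-fold and Inhbb 1.81-fold lower in #620-6, and Nodal 1.29-fold higher. Between #757-1 and #757-2, which share all labels, Inhbb was the 1 gene over 2-fold apart, 2.23-fold lower in #757-1, where 1.82% of probes were. Id1 was 1.66-fold higher in #757-1. The genotype difference of Id2 was 1.45 on the log2 scale between the #620 lines and -0.31 between the #757 lines and RF8. Opposite directions were not particular to Id2. In the same order they were seen for Id1 (0.01 and -0.96), Id3 (0.47 and -0.02) and Lefty2 (0.05 and -0.56). Smad7 (-0.21 and 0.56) turned the other way round. So did Inhbb (-0.85 and 0.35) and Bmp4 (-0.91 and 0.02), but only in the mean of the #757 lines. Against RF8, #757-1 and #757-2 were at -0.23 and 0.93 for Inhbb and at -0.16 and 0.19 for Bmp4. Lefty1, Nodal and Skil kept their direction. The #757 lines and RF8 also differ in slide and strain label, and no test of this contrast is given.

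RF8 was the highest of the 5 lines for 6 genes (Id1, Id2, Id3, Lefty1, Lefty2 and Skil) and the lowest for 2 (Nodal and Smad7). It was thus at either end for 8 of 10 genes, where this was so for 46.2% of probes that every array detected above background. For Id2 and Id3 its lead over #757-1 was slight, at 3.39 against 3.34 and 1.99 against 1.98. Some of the 8 also followed each other, such as Id2 and Id3 with a Pearson r of 0.951, so they are not separate readings. RF8 is the single line of 129sv origin, so strain and line cannot be told apart. Against RF8, 3 of the 10 genes were over 2-fold apart in #620-6 and 3 in #620-2, where 14.2% and 10.3% of probes were. In #620-6 these were Inhbb, 7.76-fold higher, Nodal, 2.21-fold higher, and Id1, 3.47-fold lower. In #620-2 they were Inhbb, 14.0-fold higher, Id2, 4.63-fold lower, and Id1, 3.50-fold lower.

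The second label that splits the lines is sex, which here is also the split between the #620 lines and the rest, so the values below are those of that split. With limma 0 of the 10 genes were called, where 0.342% of all probes were called. At an unadjusted p under 0.05 there were 4 of 10 genes, against 18% of all probes, and the groups did not overlap for 7 of 10, against 39% of all probes. Inhbb, Nodal and Smad7 were the higher of these 7 in the #620 lines, and Id1, Id2, Id3 and Skil the lower. These counts are by primary probe. By its second probe Id1 was lower without overlap, with an unadjusted limma p of 0.0738. The second probes of Id2 and Skil overlapped, that of Skil with a log2 fold change of -0.02.

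Inhbb had a mean log2 signal of 2.81 ± 0.60 (SD, n = 2) in the #620 lines and -0.34 ± 0.61 (SD, n = 3) in the others. This was a difference of 8.88-fold, with an adjusted limma p of 0.087, which missed the threshold. With normexp background correction it passed, with an adjusted limma p of 0.0407, and over all 14 alternatives the adjusted p ran from 0.0407 to 0.251. The second Inhbb probe was at least 3.48-fold higher in the #620 lines. This bound sets their mean against the mean, over the other arrays, of the lowest signal well above background or the probe's own signal if higher, and its adjusted limma p was 0.221. Nodal was 1.68-fold higher in the #620 lines, at 3.71 ± 0.26 (SD, n = 2) against 2.96 ± 0.20 (SD, n = 3), with an adjusted limma p of 0.179.

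Id1 was 2.24-fold lower in the #620 lines, at 2.02 ± 0.01 (SD, n = 2) against 3.18 ± 0.66 (SD, n = 3), with an adjusted limma p of 0.256. Id3 was 1.61-fold lower, at 1.29 ± 0.33 (SD, n = 2) against 1.97 ± 0.02 (SD, n = 3), with an adjusted limma p of 0.179. Id2 was 2.42-fold lower with an adjusted limma p of 0.281, and by its second probe the groups overlapped. By primary probe the directions of Inhbb, Nodal, Smad7, Skil, Id1, Id2 and Id3 held in all 14 alternatives. Those of Bmp4, Lefty1 and Lefty2 each turned in 1.

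**Figure D3:**
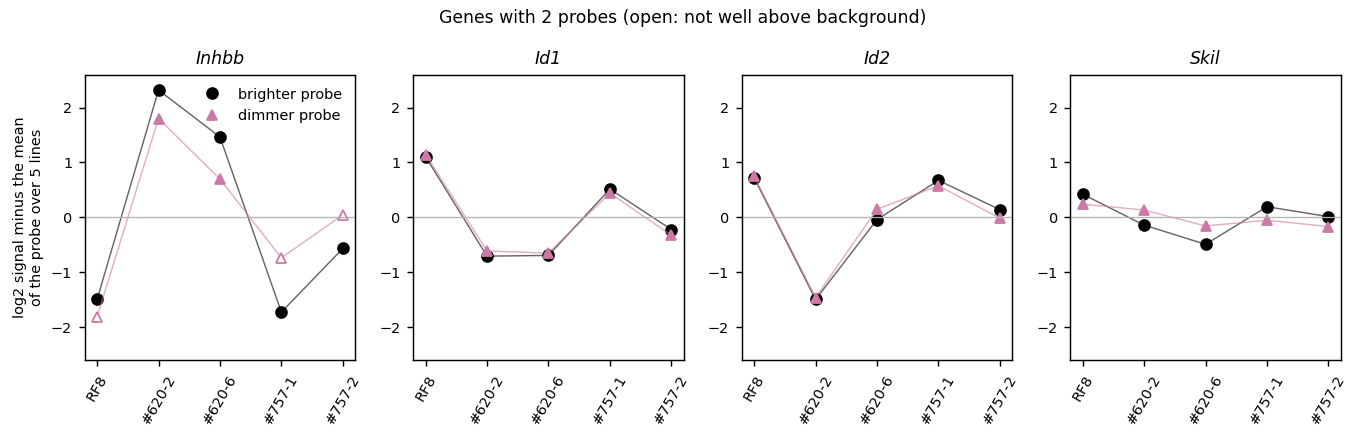
The 4 genes with 2 probes, each probe's log2 signal minus its own mean over the 5 lines (y axis) by line (x axis). Circles are the brighter and triangles the dimmer probe, and open symbols are not well above background. Both probes of Inhbb are highest in #620-2, and both of Id2 are lowest there.

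Markers of other cells were read along the same split. Of 7 fibroblast markers 5 were higher and 2 lower in the #620 lines, and 0 were called. At an unadjusted limma p under 0.05 there were 3, all of them higher, which is 42.9% beside 18% of all probes. The summed level of the 7 was 9.44 and 9.03 times the 75th percentile in the #620 lines, inside the range of the other 3 lines, 2.36 to 15.4. In RF8 this sum rests mostly on Col1a1 and Col1a2, and it hides the other markers. Taken singly, 5 of the 7 did not overlap, 71.4% beside 39% of all probes. Of these, Col3a1 (6.04-fold), Dcn (5.47-fold) and Thy1 (3.20-fold) were higher in the #620 lines and Postn lower. The count also holds Lum, as higher by measured signal. Its -5.37 in #620-6 lies below the background limits of slide 2, -4.49 and -4.22, so it cannot be ranked against the #757 lines. By genotype the same sum did not overlap, at 9.44 to 15.4 in WT and 2.36 to 9.03 in ECAT11EGFP/EGFP ESCs. The gap was narrow, between 9.44 in #620-2 and 9.03 in #620-6. By genotype 5 of the 7 were lower and 2 higher, with 0 called, and Col1a2 was 4.08-fold lower without overlap (adjusted limma p of 0.731). It was the 1 marker of the 7 without overlap, 14.3% beside 23.5% of all probes. Lum was well above background in 2 of the 5 lines and the other 6 markers in all 5. Of 6 primitive endoderm markers 6 were higher in the #620 lines and 2 were called, Pdgfra, at least 7.66-fold, and Sox17, at least 3.36-fold. These 2 are 33.3% of the 6, beside 0.342% of all probes. Both calls were lost with genotype as a covariate and without #620-2, #620-6, #757-1 or #757-2, where over all probes 0 remained. Outside the #620 lines, Pdgfra was not well above background and Sox17 was so in 1 of 3. The summed level of all 6 primitive endoderm markers was 1.47 and 1.30 in the #620 lines and 0.49 to 0.51 in the others. Of 5 primed epiblast markers 5 were lower in the #620 lines, with 0 called. At an unadjusted limma p under 0.05 there were 3, 60% beside 18% of all probes. All 5 were without overlap, 100% beside 39%, counting Sox3, which was well above background in RF8 alone. The summed level of the 5, 59.7 and 31.3 against 90.1 to 118, rests mostly on Pou3f1 and Dnmt3b. Mesendoderm markers summed to 0.62 and 0.71 in the #620 lines and 0.41 to 0.56 in the others, with 0 called. Eomes was 1.94-fold higher in the #620 lines, with an adjusted limma p of 0.113. T was 2.96-fold lower by measured signal, with an adjusted limma p of 0.275. However, T was not well above background in #620-6 and #757-1, so this fold rests in part on undetected values. Mixl1 was well above background in none of the 5 lines. The part of such cells or states in the values of the 10 genes was not tested, and in bulk RNA fewer cells and less RNA per cell cannot be told apart.

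The rest of the pathway was followed in a list of 67 genes, of which 65 had a probe that was kept and 51 were well above background in all 5 lines. By genotype limma called 0 of them. At an unadjusted p under 0.05 there were 5 higher and 2 lower in ECAT11EGFP/EGFP ESCs, with a median log2 fold change of -0.06. These 7 are 10.8% of the 65, where 7.6% of all probes reached this p. The groups did not overlap for 15 of the 65, 23.1%, where 23.5% of all probes did not. The summed fibroblast markers did not overlap between genotypes either, by the narrow gap given above. Their part in the values of these genes was not tested. By sex label 1 was called, 1.54% beside 0.342% of all probes. There, 22 had an unadjusted p under 0.05, 11 in each direction, which is 33.8% beside 18% of all probes.

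Among the Smads and nuclear partners, Smad6, the inhibitory Smad of the BMP arm, lay at -1.51 and -1.03 in RF8 and #620-2, the WT lines, and at 0.90, -0.51 and 0.01 in #620-6, #757-1 and #757-2. Every ECAT11EGFP/EGFP line was above both WT lines, by 2.64-fold in the mean, with an adjusted limma p of 0.603. Zeb2, a Smad-binding repressor, was 2.00-fold lower in ECAT11EGFP/EGFP ESCs with an adjusted limma p of 0.571, and Tgif2, a co-repressor, had a log2 fold change of 0.47. Among the targets, Msx2, a BMP-induced homeobox gene, lay at -3.07 and -2.51 in the WT lines and at -1.95, -1.45 and -1.58 in the others, in that order. It was 2.19-fold higher in ECAT11EGFP/EGFP ESCs without overlap, with an adjusted limma p of 0.472. Hey1 had a log2 fold change of 1.01 and Ltbp3, which binds latent TGF-beta, of -0.94, and both overlapped.

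Among receptors, the Nodal co-receptor Tdgf1 lay at 3.44 and 4.15 in RF8 and #620-2, and at 3.32, 2.85 and 2.87 in #620-6, #757-1 and #757-2. It was 1.72-fold lower in ECAT11EGFP/EGFP ESCs without overlap, with an adjusted limma p of 0.66. Its relative Cfc1 was 1.59-fold higher, also without overlap, with an adjusted limma p of 0.582. Tgfbr2 had a log2 fold change of -0.64. The ligands with the widest differences, the activin subunit gene Inhba (-1.15), Tgfb2 (-1.03) and Gdf1 (-0.68), all overlapped between genotypes. The ubiquitin ligase genes Nedd4l (0.65) and Rnf111 (0.30) did not overlap and Smurf2 (0.08) did. Of the extracellular regulators, the activin antagonist Fst (-0.45) did not overlap, whereas the convertase genes Pcsk6 (0.35) and Furin (-0.21) did.

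The 1 pathway gene called by sex label was Grem1, a secreted BMP antagonist. It lay at 0.42 and 0.56 in #620-2 and #620-6 on the log2 scale, and at -5.27, -5.69 and -6.18 in RF8, #757-1 and #757-2. It was well above background in both #620 lines and 1 of the other 3, RF8. The #620 mean was at least 35.6-fold above the others, by the bound given for Inhbb, with an adjusted limma p of 0.0128. The call was lost when #620-2, #620-6, #757-1 or #757-2 was left out and with genotype as a covariate. Grem1 is made by fibroblasts among other cells. The summed level of the fibroblast markers was 15.4 in RF8, where Grem1 was at -5.27, and 9.44 and 9.03 in the #620 lines. In RF8 this sum rests mostly on Col1a1 and Col1a2, at 2.98 and 2.52. Col3a1, Thy1 and Dcn were higher in both #620 lines than in the other 3, as Grem1 was, and Postn was lower. Lum in #620-6 cannot be ranked against the #757 lines, where it was not well above background. The part of fibroblasts in the Grem1 values was not tested.

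**Figure D4:**
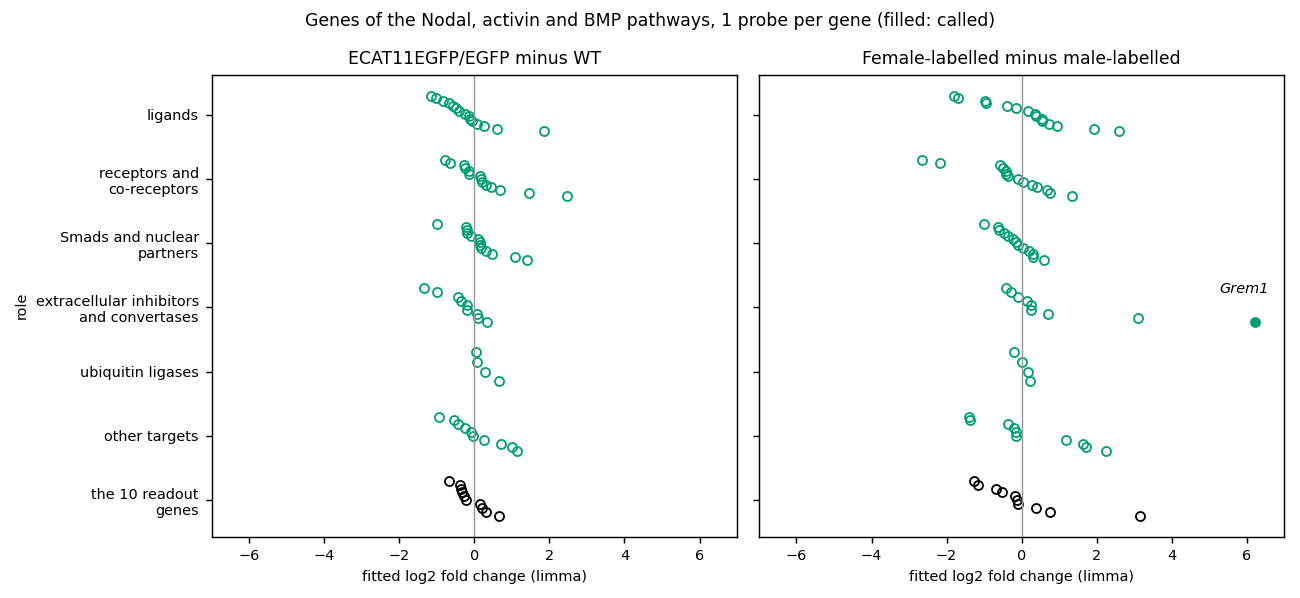
Fitted log2 fold change (x axis) of the 65 kept pathway genes by role, and of the 10 genes described here (y axis), by genotype on the left and by sex label on the right, 1 point per gene. Filled points were called, which is Grem1 by sex label and no other.

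The genes whose pattern over the 5 lines was nearest to a member were sought among 20617 probes that every array detected well above background. The measure was the Euclidean distance between the log2 profiles after subtracting each probe's mean. The nearest to Nodal were Mbtps2 at a distance of 0.06, Arxes1 at 0.08 and Kmt2c at 0.11. The nearest to Id1 were Pax6 at 0.18, Ica1 at 0.31 and Hpf1 at 0.36, and those to Bmp4 were Bdh2 at 0.13, Fam160b1 at 0.18 and Rpl3l at 0.21. For Lefty1 the nearest was Tob2, at 0.02, and the next were transcripts without a gene symbol. Each profile rests on 5 values from arrays that share their scaling, and no other member was among those named here.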

How the data were processed

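Spots were read by the authors with Feature Extraction 9.5.3.1. The deposited scanner output gives 45018 spots per array, with intensities before and after background correction and no normalization between arrays. A second deposited file holds log2 values from these arrays. Differences between its columns matched those of the scanner values with a slope of 0.9998 over 20617 probes, and its column medians ran from -0.10 to 0.08. Scale and direction are thus settled, and the constant taken from each probe is not stated. From the deposited background-corrected intensity, 1639 control spots were left out and 0.335% of the rest, marked non-uniform or outlier, set missing. Each array was divided by its 75th percentile, 687.5 to 794.4, log2 was taken and spots of a probe were averaged. No spot was saturated. On slide 1, 26390 to 27181 probes were well above background, against 22063 and 21260 on slide 2. Of the probes, 28972 were Present on 1 array or more and entered the tests. Groups come from the labels. The tests were two-sided, with limma (3.58.1, R 4.3.3) and Benjamini-Hochberg adjustment over all probes kept. The number of arrays limits the precision.

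Members and lists were chosen with earlier results of these data known. The pathway genes named are, in each role, the 3 with the largest genotype change among those well above background in all lines, and any called gene. Likeness is given for Nodal, Lefty1, Id1 and Bmp4, 3 genes each. Alternatives were normexp (offset 50), quantile normalization, the deposited table, no and a stricter filter, marked spots kept, slide as a block, the other label as a covariate, the methods' t-test and leaving out each line. The code was tested on simulated data. Tables were read with the data.table package (1.17.8) and pandas 2.3.3, and figures drawn with matplotlib 3.10.9.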

Additional observations from a re-analysis of the deposited data

How the results depend on the processing

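Over 14 alternatives each, limma or the methods' t-test called 0 of the 10 genes by genotype. The direction held in all 14 for Bmp4, Lefty1 and Lefty2, and turned in at least 1 for the other 7, in 10 of 140 values in all. Without RF8 the log2 fold change was 0.57 for Id1, 0.046 for Skil, -0.27 for Smad7 and -0.19 for Nodal. Without #620-2 it was -0.46 for Id2, -0.17 for Id3 and 1.22 for Inhbb. Inhbb was at 1.05 with the slide as a block and 0.04 without #757-1, and Nodal at -0.07 without #620-6. Leaving out each line in turn gave -1.24 to 0.57 for Id1, -0.46 to 1.75 for Id2, -0.17 to 0.77 for Id3, -2.59 to 1.22 for Inhbb, -0.19 to 0.59 for Nodal, -0.52 to 0.046 for Skil and -0.27 to 0.60 for Smad7. Bmp4 ran from -0.54 without #757-2 to -0.16 without #620-6 (-0.35 with all lines), Lefty1 from -0.51 without #620-2 to -0.25 without RF8 (-0.38) and Lefty2 from -0.53 without #620-2 to -0.02 without RF8 (-0.28). The cause of these turns was not tested.

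Over all probes the genotype gave 1 call, 3 with the stricter filter, and 0 under the other background correction, under quantile scaling, without a filter, with the t-test, with slide or sex label in the model, or without any 1 line. The sex label gave 99 calls, 287 with normexp, 207 with quantile scaling, 149 with slide in the model, 27 without a filter, 2 with the t-test and 0 with genotype as a covariate. It gave 0 to 88 calls when 1 line was left out, with 88 without RF8 and 0 without any other. With the slide as a block, #620-6 alone is set against the WT lines. Signals on slide 2 had a higher background limit, which bears on Grem1 and the second Inhbb probe.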

Other observations

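Several other genes of the pathway list lay apart in the #620 lines without passing the adjustment, and they were picked after their values were seen. Dusp9, a phosphatase gene that BMP signals are known to induce in ESCs, had a log2 signal of 3.65 in #620-2 and 4.05 in #620-6, against 2.11 in RF8, 2.32 in #757-1 and 1.99 in #757-2, with an adjusted limma p of 0.0694. Pmepa1, a target and brake of TGF-beta signals, was at -1.60 in #620-2 and -1.94 in #620-6, against -3.06 in RF8 and -2.78 in #757-1, with #757-2 between these, with an adjusted limma p of 0.0896. The BMP receptor gene Bmpr1b went the other way and was well above background in 2 of 5 lines. Smad1, which carries the BMP signal, was at 2.06 and 1.97 in the #620 lines and 2.42 to 2.87 in the others, with an adjusted limma p of 0.207.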
